A study of Mus musculus with 12 samples.

Results

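The 6 genes described here encode the muscle-type and heart-type subunits of lactate dehydrogenase (Ldha and Ldhb), the proton-coupled monocarboxylate transporters MCT1 (Slc16a1) and MCT4 (Slc16a3), and the membrane glycoproteins basigin (Bsg) and embigin (Emb) that carry such transporters to the cell surface. They were taken by gene symbol from a table of counts per gene, in which each of these symbols had a single row, and they are 6 of its 13780 genes. All 6 were among the 13767 genes kept by a filter of at least 1 CPM in at least 3 libraries, CPM being the counts-per-million unit, a count relative to the scaled total of its library.

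RNA was sequenced from CD8+ T cells that had been purified from mouse spleens (C57BL/6J, 8 to 12 weeks old) by positive selection on magnetic beads. Naive cells were frozen directly after isolation, untreated, whereas activated cells were kept for 72 h with beads carrying antibodies to CD3 and CD28 and with 10 U/ml of recombinant human IL-2, either in plain media (media group) or in media with 40 mM sodium lactate (lactate group). Each group had 4 libraries, with between 16439750 and 18601223 counts per library in the naive group, 15842423 and 20922872 in media, and 14726904 and 21478137 in lactate. The media libraries received no added salt, so that the lactate group differed from them in sodium and osmolarity as well as in lactate, and these cannot be told apart here. Library numbers formed a low run and a high run, and the high run held naive replicate 4, media replicate 4 and lactate replicates 3 and 4. The donor tags of the activated libraries were WT1, WT2 and WT3 in the low run and again WT1 and WT2 in the high run. They were taken here as different mice in each run, an assumption that makes 5 donors, as many as the record of the series gives, and 3 of these had a library in both conditions. All values by donor below rest on it.

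Markers of CD8+ T cells were present throughout, with a summed level of 1579 to 3582 CPM for the 5 genes Cd8a, Cd8b1, Cd3d, Cd3e and Cd3g in naive libraries, 2738 to 3462 CPM in media and 2049 to 2609 CPM in lactate. The 4 activated T cell markers summed to 170.0 to 584 CPM in naive libraries, 3449 to 4524 CPM in media and 6551 to 8870.3 CPM in lactate, led by Tfrc in naive and by Gzmb in activated cells, and the 4 naive T cell markers to 3470.1 to 5518 CPM, 1141 to 1868 CPM and 746 to 943 CPM, led by Tcf7 in naive and lactate and by Ccr7 in media. The activated markers did not move together from media to lactate, and 0 of the 4 were called higher there. Mean levels rose for Gzmb (1445 to 4672 CPM) and Il2ra (571 to 1526 CPM). Tfrc was at 663 CPM in media and 678 CPM in lactate, and Mki67 was lower with lactate (1256 to 905 CPM). The naive libraries also held RNA of other blood cells. For 6 myeloid markers, led by Csf1r, the sums were 1456, 1107, 494 and 452 CPM in naive replicates 1 to 4 and at most 3.18 CPM in the activated ones. The red cell gene Hba-a1 was at 367, 1306, 154 and 33.9 CPM in naive replicates 1 to 4 and at most at 0.666 CPM after activation, and Alas2, which encodes the heme synthesis enzyme of red cell precursors, was at 108, 429.9, 39.7 and 8.40 CPM in naive replicates 1 to 4, at 0 in the media libraries and at most at 0.154 CPM in lactate. The 2 CD4 T cell markers summed to 12.1 to 30.5 CPM in naive libraries and to at most 1.70 CPM after activation, and the 2 NK cell markers to 3.13 to 8.00 CPM and at most 0.717 CPM. All 6 myeloid, 2 CD4 T cell and 2 NK cell genes were called lower in media than in naive cells, as were Hba-a1 and Alas2. Over all tested genes 29.0% were called lower there. The part of these other cells in the differences from naive cells given below was not tested, and in such bulk samples fewer cells of a type and less RNA per cell cannot be told apart.

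Lactate dehydrogenase interconverts pyruvate and lactate, using NADH and NAD+, and is assembled as a tetramer of A and B subunits, with A-rich forms typical of glycolytic tissue and B-rich forms of tissue that oxidizes lactate. MCT1 and MCT4 move lactate across the plasma membrane together with a proton, MCT4 being best known for export from strongly glycolytic cells, and both usually require basigin as a chaperone, while embigin can take that place for some transporters. When T cells are activated they take up more glucose and release lactate, and these genes sit where that flux leaves, or extracellular lactate enters, the cell.

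On a scale that also divides by gene length, transcripts-per-million (TPM), Ldha had the highest mean of the 6 genes in every group. In naive replicate 2 Bsg stood above Ldha (312 against 306 TPM). In naive replicate 4 both Bsg (285.5 TPM) and Emb (282.35 TPM) stood above Ldha (282.11 TPM). In naive cells mean TPM was 315 ± 37.1 (SD, n = 4) for Ldha, 278 ± 26.3 for Bsg, 181 ± 69.0 for Emb, 64.8 ± 14.5 for Slc16a1, 16.4 ± 3.37 for Ldhb and 6.31 ± 0.778 for Slc16a3. In media the order by mean TPM was Ldha (2797 ± 215), Bsg (1817 ± 48.7), Slc16a3 (275 ± 32.2), Emb (137 ± 19.5), Slc16a1 (125 ± 18.5) and Ldhb (19.2 ± 3.98). In lactate Slc16a1 (159.9 ± 13.9 TPM) stood above Emb (103 ± 2.95 TPM), behind Ldha (3481 ± 111 TPM), Bsg (1469.7 ± 275 TPM) and Slc16a3 (232 ± 10.1 TPM), with Ldhb (16.2 ± 2.39 TPM) last. Neighbours whose libraries overlapped in TPM were Ldha and Bsg in naive cells, Bsg and Emb in naive cells, and Emb and Slc16a1 in media; all other neighbours in these orders were separated in every library. Ranked among the 13780 genes by mean TPM, Ldha moved from place 422 in naive cells to 30 in media and 22 in lactate, and Slc16a3 from place 10051 to 539 and 682.

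Activation in media was accompanied by a rise of 4 of the 6 genes (Ldha, Slc16a1, Slc16a3 and Bsg) at an edgeR adjusted p of at most 0.01, where 28.5% of all tested genes were called higher, and none of the 6 was called lower, where 29.0% of all genes were. None was lower at an unadjusted edgeR p under 0.05 either, and with DESeq2 Emb was at an adjusted p of 0.0362, which does not pass 0.01. The 4 libraries of each group did not overlap for these 4 genes, as for 61.2% of all tested genes. Between lactate and naive cells the same 4 genes were called higher (33.0% of all genes) and 1, Emb, lower (32.0% of all genes), and 5 of the 6 did not overlap (67.8% of all genes). Between lactate and media 1 gene, Ldha, was called higher (13.9% of all genes) and 0 were called lower (11.1% of all genes), while Ldha and Slc16a1 did not overlap (44.7% of all genes). The median log2 fold change of the 6 genes was 1.80 in media against naive, 1.96 in lactate against naive and -0.11 in lactate against media, beside -0.03, 0.01 and -0.0016 over all tested genes. The 3 comparisons share libraries pairwise and are set side by side here. With donor as a block, a fit in which 3 donors carry the comparison, 992 genes instead of 3451 were called between lactate and media, and 0 of the 6.

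**Figure D1:**
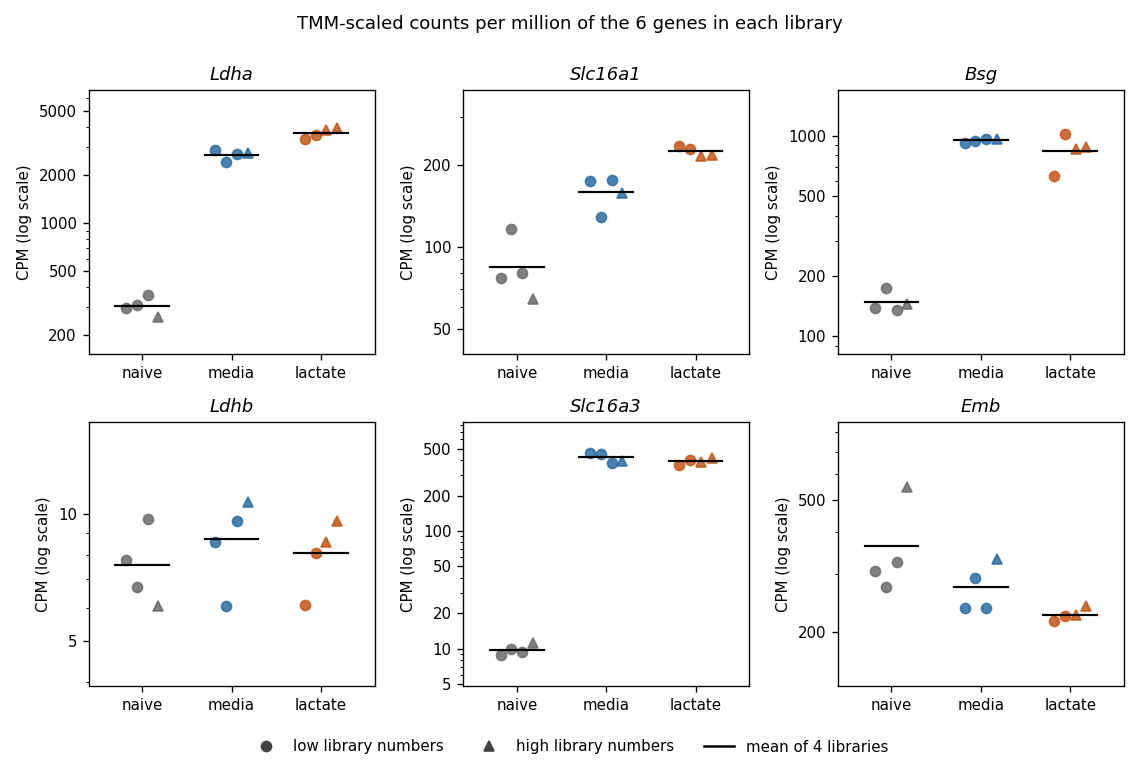
CPM of the 6 genes (vertical axes, log scale, TMM-scaled) in each of the 12 libraries, by group; circles and triangles are libraries of the low and the high run of library numbers and lines are means of 4. Ldha, Slc16a1, Slc16a3 and Bsg lie higher in all 8 activated libraries than in the 4 naive ones, Ldhb overlaps between all groups, and the naive Emb library of the high run stands at 547 CPM above the others.

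Ldha (ENSMUSG00000063229) lies on the plus strand at chr7:46841475-46855627 (GRCm38), and its 15 annotated transcripts merge into 11 exons of 3310 bases in all. Its level was 294, 310.2, 359 and 262 CPM in naive replicates 1 to 4, 2839, 2401, 2713 and 2729.5 CPM in media replicates 1 to 4, and 3346, 3537.5, 3821 and 3929.6 CPM in lactate replicates 1 to 4. Every activated library was above every naive library, and every lactate library was above every media library. The log2 fold change was 3.12 ± 0.11 (SE) in media against naive, an 8.72-fold rise (95% confidence interval 7.35 to 10.3, edgeR adjusted p = 1.66e-09), and 3.58 ± 0.12 in lactate against naive (adjusted p = 9.37e-10). Within the low run of libraries these differences were 3.05 and 3.43 for Ldha, and within the high run, with 1 naive library, 3.38 and 3.89. Lactate added 0.45 ± 0.11 to the level in media, a 1.37-fold difference (interval 1.17 to 1.60, edgeR adjusted p = 0.00468).

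In all 3 donors that gave both conditions Ldha was higher with lactate, by 0.24, 0.38 and 0.53 on the log2 scale, and the difference of mean log2 CPM was 0.38 within the low run of libraries and 0.51 within the high run, which had 1 media library. The call of Ldha between lactate and media was nevertheless close to the threshold. With donor as a block the log2 fold change was 0.38 and the edgeR adjusted p = 0.0692, and with upper quartile scaling they were 0.43 and 0.0110. Leaving out media replicate 2, 3 or 4 gave edgeR adjusted p = 0.0177, 0.0128 and 0.0105, and leaving out lactate replicate 3 or 4 gave 0.0181 and 0.0203, so that each of these libraries decided the call but not the direction.

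Several processed copies of Ldha are annotated elsewhere in the genome, and 16.6% of the 50-base words of its longest coding transcript recurred in transcripts of 14 other genes. Reads that fit both places would be lost from a count of uniquely mapped reads, so the level of Ldha may be a lower estimate. How many reads were lost was not tested. Of these copies 3 had rows in the table, and the highest count among them was 216 (Gm11814, in media), set against 43535 to 61391 counts for Ldha in media.

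Ldhb (ENSMUSG00000030246, minus strand, chr6:142490249-142507957, GRCm38, 9 merged exons, 1570 bases), the subunit that favours the oxidation of lactate, was expressed at a low level in all groups. It stood at 7.78, 6.73, 9.70 and 6.05 CPM in naive replicates 1 to 4, 8.55, 6.06, 9.59 and 10.7 CPM in media, and 6.10, 8.07, 8.56 and 9.59 CPM in lactate. The 3 groups overlapped, with the lowest library of each near 6 CPM and the highest near 10 CPM. Counts of 108 to 199 per library lay behind these values. The log2 fold change was 0.20 ± 0.22 in media against naive (edgeR adjusted p = 0.428), 0.09 ± 0.22 in lactate against naive (adjusted p = 0.709) and -0.11 ± 0.22 in lactate against media (adjusted p = 0.732). The 95% intervals on the log2 scale, -0.27 to 0.68 in media against naive and -0.58 to 0.36 in lactate against media, leave room for differences of such sizes, which were not detectable with these libraries. Within groups the coefficient of variation of Ldhb was 21.03% in naive cells, 22.6% in media and 18.1% in lactate. In the 3 donors with both conditions, Ldhb was lower with lactate by 0.48, 0.25 and 0.15 on the log2 scale, and the low and high runs gave -0.17 and -0.23. Against naive cells the runs differed in direction in both comparisons, with -0.01 (low) and 0.81 (high) for Ldhb in media and -0.18 and 0.57 in lactate. A near-copy, Gm5514, shared 27% of the 50-base words of the longest coding Ldhb transcript, so that the level of Ldhb too may be a lower estimate, which was not tested.

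The composition of the lactate dehydrogenase pair followed from these levels. Ldhb made up 4.92% ± 0.491 (SD, n = 4) of the summed TPM of Ldha and Ldhb in naive cells, 0.679% ± 0.126 in media and 0.461% ± 0.0551 in lactate. Without division by gene length, on the scale of CPM, these shares of Ldhb were 2.40%, 0.323% and 0.219%. Naive libraries (4.37% to 5.39%) lay apart from all activated ones, while the ranges of media (0.529% to 0.817%) and lactate (0.383% to 0.512%) came close without overlapping. The summed TPM of the pair was 332 ± 40.2 in naive cells, 2817 ± 218 in media and 3497 ± 113 in lactate.

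Slc16a1 (ENSMUSG00000032902, plus strand, chr3:104638668-104658462, GRCm38, 5 exons, 4426 bases), which encodes MCT1, a transporter able to carry lactate in either direction, was at 77.2, 116 and 80.3 CPM in naive replicates 1 to 3 and at 64.6 CPM in replicate 4. In media it was at 174, 129, 176 and 157 CPM, and in lactate at 235, 229, 215 and 217 CPM. The groups formed 3 steps without overlap, media above naive and lactate above media, and the lactate libraries lay closest together (coefficient of variation 4.24%, beside 13.8% in media and 26.2% in naive cells). The naive library highest in Slc16a1, replicate 2, was also the one highest in Hba-a1 (1306 CPM), in Alas2, in the sum of the 4 activated T cell markers (584 CPM, beside 170.0 to 295 CPM) and in Bsg. The part of red cells or of activated T cells in that level was not tested.

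Slc16a1 rose by 0.91 ± 0.16 on the log2 scale in media against naive, or 1.88-fold (interval 1.48 to 2.39, edgeR adjusted p = 0.000248), and by 1.40 ± 0.16 in lactate against naive (adjusted p = 5.47e-06). Within the low run the differences of Slc16a1 from naive cells were 0.82 in media and 1.37 in lactate, and within the high run 1.28 and 1.74. Between lactate and media the log2 fold change was 0.49 ± 0.16 (1.41-fold, interval 1.11 to 1.79), in size like that of Ldha, and the adjusted p = 0.0257 did not pass 0.01. In the 3 donors with both conditions the difference was 0.43, 0.38 and 0.47, and it was 0.55 within the low run and 0.46 within the high run. The side of the threshold on which Slc16a1 fell changed with libraries outside this comparison. Without naive replicate 2 the edgeR adjusted p was 0.00634, without naive replicate 4 it was 0.00940, and with the media and lactate libraries alone it was 0.00318. With donor as a block it was 0.171, again not called.

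Slc16a3 (ENSMUSG00000025161, plus strand, chr11:120948480-120960868, GRCm38, 9 merged exons, 5318 bases), which encodes MCT4, was barely expressed before activation, at 8.79, 9.97, 9.43 and 11.1 CPM in naive replicates 1 to 4. It reached 461, 452, 381 and 393 CPM in media and 365, 398, 387 and 417 CPM in lactate. The activated libraries were all far above the naive ones, and media and lactate overlapped. The rise in media was 42.9-fold (interval 36.0 to 51.2, log2 fold change 5.42 ± 0.12, edgeR adjusted p = 3.65e-11), and by raw p Slc16a3 ranked 1 among all 13767 genes both in media against naive and in lactate against naive (39.9-fold, adjusted p = 4.39e-11). By size it was above 99.2% of all genes in media against naive, beside 94.5% for Ldha. In lactate against media the log2 fold change was -0.11 ± 0.10 (edgeR adjusted p = 0.41), with a 95% interval of the fold from 0.805 to 1.07. It was -0.15 to -0.06 with a library left out and -0.06 with donor as a block. For Slc16a3 the donors did not share a direction, at -0.34, 0.06 and 0.09, and the runs gave -0.17 (low) and 0.03 (high). In media against naive the runs gave 5.50 and 5.13, and in lactate against naive 5.33 and 5.17.

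Slc16a3 made up 9.18% ± 2.43 (SD, n = 4) of the summed TPM of Slc16a1 and Slc16a3 in naive cells, 68.8% ± 4.23 in media and 59.3% ± 2.14 in lactate. The order of the pair was thus opposite before and after activation in every library, with MCT1 transcripts in excess in the 4 naive libraries (6.67% to 12.5% Slc16a3) and MCT4 transcripts in excess in the 8 activated ones (56.4% to 74.5%). The lactate range (56.4% to 61.5%) lay below the media range (64.4% to 74.5%). The summed TPM of the pair was 400.0 ± 36.0 in media and 392 ± 18.7 in lactate, beside 71.1 ± 14.2 in naive cells. These shares are descriptions without a test.

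**Figure D2:**
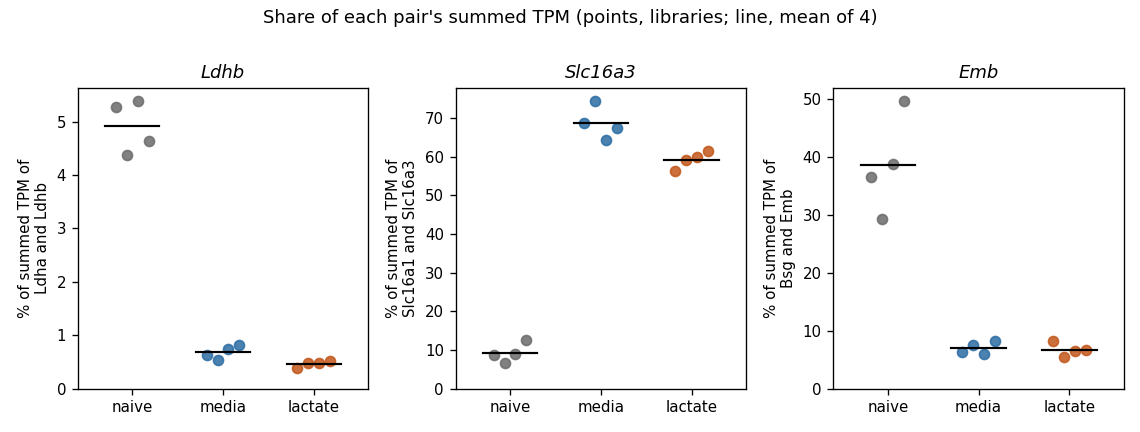
Share of Ldhb, Slc16a3 and Emb in the summed TPM of their pair (vertical axes, percent, from 0) in each of the 12 libraries, by group; points are libraries and lines means of 4. Ldhb stands at 4.92% of its pair in naive cells and 0.679% in media, Slc16a3 stands at 9.18% in naive cells and 68.8% in media, and Emb at 38.6% and 7.03%.

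Bsg (ENSMUSG00000023175, plus strand, chr10:79704491-79711969, GRCm38, 7 merged exons, 1814 bases), the immunoglobulin-domain partner that MCT1 and MCT4 need to reach the membrane, was at 139, 174, 135 and 145 CPM in naive replicates 1 to 4. In media it was at 919, 948, 968 and 969.6 CPM, and in lactate at 630.1, 1021, 858 and 877 CPM. All activated libraries exceeded the naive ones, the media libraries were nearly equal (coefficient of variation 2.49%), and the lactate libraries lay on both sides of them, with replicate 1 lowest (19.1%). Bsg rose 6.41-fold in media against naive (interval 5.19 to 7.92, log2 fold change 2.68 ± 0.14, edgeR adjusted p = 1.26e-08) and 5.71-fold in lactate against naive (adjusted p = 1.46e-08). In lactate against media the log2 fold change was -0.17 ± 0.13 (edgeR adjusted p = 0.341), and it was -0.05 without lactate replicate 1. For Bsg the donors gave -0.54, 0.08 and -0.14, and the low and high runs -0.24 and -0.16. In media against naive the runs gave 2.67 and 2.74, and in lactate against naive 2.43 and 2.58.

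Emb (ENSMUSG00000021728, plus strand, chr13:117208536-117274415, GRCm38, 12 merged exons, 6906 bases), a relative of basigin, was at 305, 274, 325 and 547 CPM in naive replicates 1 to 4, 236, 292, 236 and 333 CPM in media, and 216, 223, 225 and 239 CPM in lactate. Naive and media libraries overlapped, as did media and lactate, whereas each lactate library was below each naive one, and naive replicate 4, the only naive library of the high run, was far above the other naive libraries. That library also had the lowest sum of CD8+ T cell markers in its group (1579 CPM, beside 2635 to 3582 CPM) and the highest sum of naive T cell markers (5518 CPM, beside 3470.1 to 4105 CPM), and its distance from the other naive libraries over all genes, as chi-square per degree of freedom, was 127 to 141, beside 25.1 to 45.9 among those. The part of these differences in the level of Emb was not tested. Emb fell by 0.68 on the log2 scale (SE 0.19) in lactate against naive, to 0.623 of the naive level (interval 0.465 to 0.834, edgeR adjusted p = 0.00648). The call was lost without lactate replicate 1, 2 or 3 (edgeR adjusted p = 0.0186, 0.0168 and 0.0103), and without naive replicate 4 the log2 fold change was -0.42 with the call kept. Within the low run the difference was -0.45 and within the high run, with 1 naive library, it was -1.24. In media against naive the log2 fold change was -0.40 ± 0.19 (edgeR adjusted p = 0.0821), with -0.14 without naive replicate 4 and -0.60 without naive replicate 2. In lactate against media it was -0.28 ± 0.19 (edgeR adjusted p = 0.275), with values below 0 in all 3 donors (-0.13, -0.08 and -0.48). With a library left out this value was -0.35 to -0.18, the last without media replicate 4. The low and high runs gave -0.25 and -0.71 for Emb in media against naive, and -0.21 and -0.52 in lactate against media.

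A gene on the opposite strand, Gm17509, covers 686 exonic bases of Emb, or 9.93% of them, and 22.2% of the 50-base words of the longest coding Emb transcript recur in its transcripts on either strand. How strand was used in counting is not given in the sources used here, so that reads there cannot be assigned with certainty. Its own row held 1 to 26 counts per library, beside 3186 to 9756 for Emb. Slc16a1 contains 2 intronic non-coding genes that share 0 bases with its exons, and no other annotated gene overlaps Ldha, Ldhb, Slc16a3 or Bsg.

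As a share of the summed TPM of Bsg and Emb, Emb was at 38.6% ± 8.47 in naive cells, 7.03% ± 1.04 in media and 6.70% ± 1.17 in lactate (SD, n = 4). Without division by gene length, on the scale of CPM, it was 69.9%, 22.3% and 21.4%, so that in naive cells Emb was above Bsg in counts and below it in TPM. The naive libraries (29.3% to 49.7% of TPM) lay above all activated ones, and media (6.02% to 8.27%) and lactate (5.42% to 8.26%) overlapped. Summed chaperone TPM was 459 ± 73.7 in naive cells, 1954 ± 40.1 in media and 1573 ± 275 in lactate.

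For each of the 6 genes, the 3 genes with the smallest root mean square difference of centred log2 CPM over the 12 libraries were sought among 9959 others. Nearest to Ldha were Acot7 (0.13), Ezh2 (0.14) and Mif (0.14), and nearest to Slc16a1 were Atp5pb (0.13), Ola1 (0.14) and Cox5a (0.15). Slc16a3 had no neighbour as close, its nearest being Bnip3 (0.28), Spin4 (0.31) and BC030867 (0.32). Bnip3 went from a mean of 3.96 CPM in naive cells to 201 in media and 185 in lactate, and BC030867 from 1.66 CPM to 55.0 and 50.4. The nearest patterns to Bsg were Sap30 (0.13), Tmem237 (0.16) and Stmn1 (0.18), and those to Emb were Lemd3 (0.07), Frmd8 (0.10) and Rnf2 (0.11). Around Ldhb, whose pattern is nearly flat, Trappc9, Zfp622 and Gatd3a (all 0.19) came first.

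Promoter sequence was read for the 250 bases before the gene start, from a set of windows at RefSeq starts (GRCm38.p6). The set used held windows for 5 of the 6 genes, with 2 starts for Ldha, and none was found in it for Bsg. These starts are those of RefSeq, and for Ldha, Slc16a3 and Emb the windows lie inside the gene spans of GENCODE M21 given above. The bases directly after the start were not found in a GENCODE transcript for the first Ldha window and for Slc16a1. Because Ldha and Slc16a3 were the genes that rose with the strongest fold among the enzymes and transporters, and Ldha and Slc16a1 those higher in every lactate library, their windows are shown beside that of Ldhb. For Ldha only the first window is shown. The second, whose bases after the start were found in a GENCODE transcript, is left out. The letters ACGTG and GCGTG, the core of the sequence that hypoxia-inducible factors bind, were searched on both strands; ACGTG occurs in 16.6% and GCGTG in 28.2% of all 32851 windows of that length, and at least 1 of them in 38.6%. The E-box CACGTG, which is held by 6.02% of the windows and reads the same on both strands, contains ACGTG on each strand and is counted there as 2 matches. Capitals mark the matches.
Ldha, first start, chr7:46845554-46845803, plus strand: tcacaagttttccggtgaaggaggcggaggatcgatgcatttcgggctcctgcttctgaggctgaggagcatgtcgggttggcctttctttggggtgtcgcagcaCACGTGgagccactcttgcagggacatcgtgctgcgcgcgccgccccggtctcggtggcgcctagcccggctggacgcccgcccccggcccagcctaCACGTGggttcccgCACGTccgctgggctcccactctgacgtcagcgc
Slc16a3, chr11:120948817-120949066, plus strand: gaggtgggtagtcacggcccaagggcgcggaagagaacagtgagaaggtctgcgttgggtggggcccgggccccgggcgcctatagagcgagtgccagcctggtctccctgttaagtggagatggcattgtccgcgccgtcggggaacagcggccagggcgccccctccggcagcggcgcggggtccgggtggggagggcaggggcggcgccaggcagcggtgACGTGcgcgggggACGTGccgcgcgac
Slc16a1, chr3:104638414-104638663, plus strand: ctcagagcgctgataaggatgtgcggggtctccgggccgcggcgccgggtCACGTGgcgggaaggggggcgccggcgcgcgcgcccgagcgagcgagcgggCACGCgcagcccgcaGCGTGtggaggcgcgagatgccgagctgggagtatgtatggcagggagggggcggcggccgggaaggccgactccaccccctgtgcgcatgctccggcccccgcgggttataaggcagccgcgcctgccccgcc
Ldhb, chr6:142507958-142508207, minus strand: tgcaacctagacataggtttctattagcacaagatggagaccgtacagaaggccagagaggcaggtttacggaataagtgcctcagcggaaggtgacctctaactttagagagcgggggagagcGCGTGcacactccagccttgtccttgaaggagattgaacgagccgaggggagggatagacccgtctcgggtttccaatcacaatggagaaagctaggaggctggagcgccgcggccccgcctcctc
The first Ldha window held 5 matches to ACGTG, 4 of them within 2 copies of CACGTG starting 145 and 48 bases before the gene start. That of Slc16a3 held 2, starting 27 and 14 bases before the start, and that of Slc16a1 held 2 within 1 CACGTG and 2 matches to GCGTG. The Ldhb window and the second Ldha window each held 1 match to GCGTG, and the Emb window held 0. These are matches of letters and not measured binding sites. The windows also differed in base composition, for which the shares over all windows were not matched. G and C made up 67.2% of the first Ldha window, 76.4% of that of Slc16a1 and 73.6% of that of Slc16a3. They made up 54.4% of the second Ldha window, 56.4% of that of Ldhb and 54.8% of that of Emb. The part of base composition in the number of matches was not tested.

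Among the other genes that act on lactate or resemble the lactate dehydrogenases, Ldhd, which oxidizes D-lactate, and Uevld, which carries a lactate dehydrogenase-like domain, were the 2 of 5 listed genes that were tested. Uevld was higher in media than in naive cells (24.4 against 7.45 CPM) and lower in lactate (14.5 CPM) than in media (log2 fold change -0.75 ± 0.18, edgeR adjusted p = 0.00500, and 0.0558 with donor as a block). That call of Uevld was also lost without any of lactate replicates 1, 3 and 4 and media replicates 1 and 2 (adjusted p up to 0.0197). Ldhd was at 2.09 CPM in media and 3.69 CPM in lactate (log2 fold change 0.82 ± 0.37, edgeR adjusted p = 0.0948), with overlap and no call. The median log2 fold change of these 2 genes, which differed in direction between lactate and media, was 0.04 in lactate against media and 0.89 in media against naive.

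Of 14 further SLC16 and sodium-coupled monocarboxylate transporters, 7 were tested. Between lactate and media 0 were called in either direction, where 25.1% of all tested genes were (median log2 fold change 0.41, with Slc16a9, which had no counts in both groups, at 0). In media against naive 1 was called higher and 3 lower (median -0.56), beside 28.5% and 29.0% of all tested genes. Slc16a6, the one with the highest TPM in activated cells, was at 59.0 CPM in naive cells, 58.8 CPM in media and 80.1 CPM in lactate (0.45 ± 0.16 in lactate against media, adjusted p = 0.0411). Lactate replicate 1 stood at 107.5 CPM and the other lactate libraries at 68.4 to 76.0 CPM, and without it the log2 fold change of Slc16a6 was 0.27. The 3 that were lower, named after their values were seen, were Slc16a5, Slc16a7 and Slc16a9, and they varied among the naive libraries. Slc16a9 was at 38.9, 22.8, 10.0 and 6.27 CPM in naive replicates 1 to 4 and at 0 counts in all 8 activated libraries. Its naive mean of 19.5 CPM was 117.7-fold above a floor of 3 counts per activated library. The lowest naive library, replicate 4, was less far above that floor. Slc16a5 went from 1.85 to 51.5 CPM in naive libraries, lowest in replicate 4, to a mean of 0.495 CPM in media, and Slc16a7 from 1.34 to 12.0 CPM to 0.146 CPM. Slc16a7 and Slc16a9 were highest in naive replicate 1, as was the sum of the myeloid markers (1456 CPM), and Slc16a5 was highest in naive replicate 3; the part of other cells in these levels was not tested. Slc16a11, also named after its values were seen, was the gene called higher, from 1 count over the 4 naive libraries to a mean of 1.95 CPM in media.

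Basigin's family and partners were a list of 6 tested genes. In lactate against media 2 were called higher and 0 lower (median log2 fold change 0.38), beside 13.9% and 11.1% of all tested genes. In media against naive 2 were called higher and 0 lower (median 0.54), beside 28.5% and 29.0% of all tested genes. Slc7a5, the light chain of an amino acid exchanger that associates with basigin, went from 70.6 CPM in naive cells to 309 in media and 732 in lactate (log2 fold change 1.24 ± 0.25 in lactate against media, edgeR adjusted p = 0.00226, and 0.0148 with donor as a block). Ppia, which encodes the basigin ligand cyclophilin A and had the highest TPM of the list, was at 398, 648 and 903 CPM (0.48 ± 0.10 in lactate against media, adjusted p = 0.00222, 0.0337 with the block and 0.0109 without lactate replicate 3).

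Glucose uptake and glycolysis, the steps that supply pyruvate to lactate dehydrogenase, were represented by 16 genes, all tested. In media against naive all 16 were called higher without overlap, with a median log2 fold change of 3.51, beside 3.12 for Ldha. Over all tested genes 28.5% were called higher there and 61.2% did not overlap in either direction. In lactate against media 0 were called higher and 3 lower (13.9% and 11.1% of all tested genes), with a median of -0.07. The genes called lower were Aldoc, from 353 CPM in media to 87.3 in lactate (-2.02 ± 0.31, edgeR adjusted p = 0.000368), Gpi1, from 1946 to 1264 CPM (-0.62 ± 0.10, adjusted p = 0.000663), and Aldoa, from 4444 to 3383 CPM (-0.39 ± 0.10, adjusted p = 0.00862). With donor as a block Gpi1 kept its call and the adjusted p of Aldoc was 0.0124 and that of Aldoa 0.0377. Aldoa, the gene of this list with the highest TPM in activated cells, kept its call only without naive replicate 3, naive replicate 4 or lactate replicate 2, and lost it without any other single library (adjusted p up to 0.0220) and with upper quartile scaling.

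**Figure D3:**
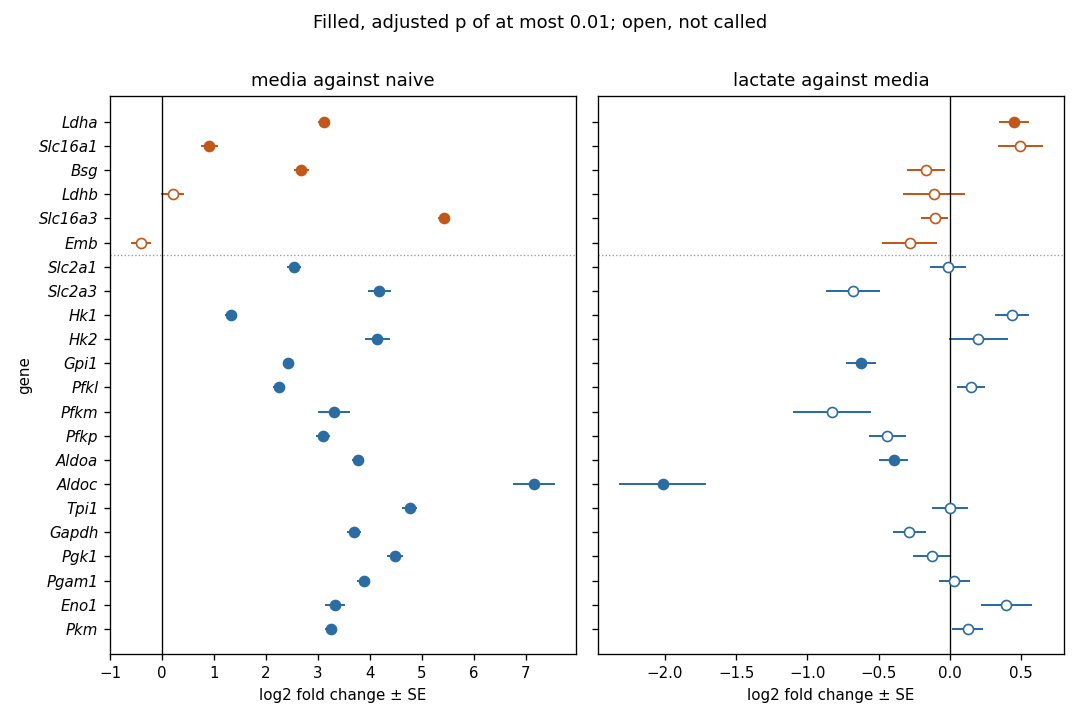
Log2 fold change with its standard error (horizontal axes) for the 6 genes (orange, above the dotted line) and the 16 genes of glucose uptake and glycolysis (blue) in media against naive and in lactate against media; filled points have an adjusted p of at most 0.01. All 16 glycolysis genes are filled and above 0 on the left, and on the right only Ldha is filled above 0 while Gpi1, Aldoa and Aldoc are filled below 0.

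Beyond lactate dehydrogenase, pyruvate enters mitochondria and is oxidized by pyruvate dehydrogenase, which Pdk kinases inhibit. Of 14 tested genes of this step (15 listed) 5 were called higher and 1 lower in lactate against media (median log2 fold change 0.19). Over all tested genes the shares there were 13.9% and 11.1%. In media against naive 6 were called higher and 0 lower (median 0.33), beside 28.5% and 29.0% of all tested genes. Pdk2 went from 7.57 CPM in media to 1.56 in lactate (-2.26 ± 0.34, edgeR adjusted p = 0.000321), with 16 to 54 counts per lactate library. The other tested Pdk genes, Pdk1 and Pdk3, were more abundant, changed less and were not called. Pdk1 went from 595 to 360 CPM (-0.72 ± 0.23, edgeR adjusted p = 0.0237) and Pdk3 from 116 to 96.1 CPM (-0.27 ± 0.08, edgeR adjusted p = 0.0193). Of the subunits of the pyruvate dehydrogenase complex, Pdhb was not called and overlapped (91.5 to 104.7 CPM, 0.19 ± 0.08, adjusted p = 0.0583), and those higher with lactate were Dlat (58.8 to 94.97 CPM, log2 fold change 0.69 ± 0.11, adjusted p = 0.000536), Pdhx (17.1 to 25.0 CPM, log2 fold change 0.54 ± 0.12, adjusted p = 0.00407), Dld (102 to 148 CPM, log2 fold change 0.54 ± 0.14, adjusted p = 0.00997) and Pdha1 (220.4 to 274 CPM, log2 fold change 0.31 ± 0.08, adjusted p = 0.00837). With donor as a block Pdk2 kept its call, and the adjusted p was 0.0107 for Dlat, 0.0451 for Pdhx, 0.0911 for Dld and 0.0934 for Pdha1. Leaving out any single library other than naive replicate 4 ended the call of Dld (adjusted p up to 0.0354) and of Pdha1 (up to 0.0356), and leaving out any of lactate replicates 1, 3 and 4 and media replicates 2 and 4 ended that of Pdhx (up to 0.0146). The calls of Dld and Pdha1 were also lost with DESeq2 size factors, with scaling by total counts and with a term for the library run, and that of Pdha1 with upper quartile scaling.

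The shuttles that pass electrons of cytosolic NADH to mitochondria, an alternative to its reoxidation by lactate dehydrogenase, were represented by 9 tested genes. In lactate against media 4 were called higher and 0 lower (median log2 fold change 0.57), beside 13.9% and 11.1% of all tested genes. In media against naive 6 were called higher and 1 lower (median 0.92), beside 28.5% and 29.0% of all tested genes. The aspartate-glutamate carrier gene Slc25a13 rose from 18.7 to 39.2 CPM (1.07 ± 0.23, edgeR adjusted p = 0.00286), the glycerophosphate dehydrogenase gene Gpd2 from 106 to 164 CPM (0.64 ± 0.16, adjusted p = 0.00634), Mdh2 from 281 to 417 CPM (0.57 ± 0.10, adjusted p = 0.000880) and Got2 from 141 to 195 CPM (0.47 ± 0.10, adjusted p = 0.00274). All 4 calls were lost with donor as a block, where the adjusted p was 0.0387, 0.0525, 0.0121 and 0.0365 in that order. The call of Gpd2 was lost without any of lactate replicates 1, 3 and 4 and media replicates 2 and 4 (adjusted p up to 0.0240), that of Slc25a13 without lactate replicate 1 or either of media replicates 2 and 4 (up to 0.0112), and that of Got2 without lactate replicate 3 or 4 (up to 0.0120), while Mdh2 kept it without any 1 library.

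The alanine transaminases compete with lactate dehydrogenase for pyruvate. Gpt2, the mitochondrial one, went from 1.85 CPM in naive cells to 35.8 in media and 100.4 in lactate (1.49 ± 0.24 in lactate against media, edgeR adjusted p = 0.000507), a call kept with donor as a block and in each fit that left out 1 library, while Gpt was at 7.81 CPM in media and 7.74 CPM in lactate (-0.01 ± 0.18). Of 6 tested transcription factors known to act on Ldha or on MCT genes, 1 was called higher and 1 lower in lactate against media. Over all tested genes 13.9% were called higher and 11.1% lower there. Esrra went from 25.3 to 39.6 CPM (0.65 ± 0.13, adjusted p = 0.00254, 0.0388 with donor as a block and 0.0104 without media replicate 2), and Arnt, the partner of hypoxia-inducible factors, from 102 to 74.8 CPM (-0.45 ± 0.11, adjusted p = 0.00729, and 0.0836 with the block). The call of Arnt was lost without any of media replicates 2 to 4 or any lactate replicate (adjusted p up to 0.0236). Hif1a, of the same list, overlapped between media (512 CPM) and lactate (493 CPM) and was not called (-0.05 ± 0.13, edgeR adjusted p = 0.779). Against naive cells (148 CPM) Hif1a was higher in media (1.79 ± 0.13, edgeR adjusted p = 1.93e-07). Myc, the factor with the highest TPM, was at 233 CPM in naive cells, 362 in media and 613 in lactate (0.76 ± 0.25 in lactate against media, adjusted p = 0.0293), and its adjusted p was 0.00290 without media replicate 4 and 0.00856 without naive replicate 4.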

How the data were processed

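The deposited values are raw counts of reads per gene, which the authors made, per the labels and the methods of the study, with bcl2fastq 2.20.0.422, STAR 2.7.5b (GRCm38), removal of PCR duplicates and featureCounts over uniquely mapped reads (Ensembl release 99). From these counts a model with a term for each of the 3 groups was fitted to all 12 libraries with edgeR 4.0.16 (limma 3.58.1, R 4.3.3): genes with at least 1 CPM in at least 3 libraries, TMM scaling, glmQLFit and glmQLFTest, two-sided, p adjusted after Benjamini and Hochberg for all 13767 genes kept, and a call at 0.01 or below. The step was tested on simulated counts. Their spread was set smaller than the one estimated for these data. The changes planted in them were larger than those of Ldha and Slc16a1 between lactate and media. That test therefore does not cover differences of such sizes. CPM are TMM-scaled, and TPM use the gene lengths of the table, which for the 6 genes equal the merged exons of GENCODE M21 (Ensembl 96). Intervals are 95%.

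Donor tags in the labels pair 3 media and lactate libraries, whose deviations from their group means correlated at 0.374, 0.211 and 0.553. Title numbers 1 and 4 follow the donors, and 2 and 3 do not.

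The named genes are the 6 genes in every sample, up to 4 genes of each pathway list called between lactate and media with the largest absolute fold change, the gene of each list with the highest TPM in activated cells, and the 3 genes most like each of the 6 in pattern. Named outside this rule are Ldhd, Pdhb, Pdk1, Pdk3, Gpt, Hif1a, Slc16a5, Slc16a7, Slc16a9, Slc16a11, marker genes, and copies of or genes overlapping the 6. Mpc2, called higher with lactate (edgeR adjusted p = 0.00262), was left unnamed above by the rule. The 6 genes and the lists were chosen with earlier results of these data known. Some marker genes, and sums that hold them, are not reported here. Alternatives were DESeq2 1.42.0, limma voom, other scalings and filters, blocks, a term for the library run, an adjusted p of 0.05 and leaving out each library.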

Additional observations from a re-analysis of the deposited data

Results flagged for a closer look

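For each of the 6 genes in each group, a total of 18 groups of 4 libraries, the gap between the most extreme library and its nearest neighbour was compared with the whole range. No group passed the critical ratio for 4 samples (Dixon, 95%). The nearest was Emb in naive cells, where replicate 4 (547 CPM, next 325 CPM) had a ratio of 0.81.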

How the results depend on the processing

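The direction and call of Ldha, Slc16a1, Slc16a3 and Bsg against naive cells were the same under every alternative run for these comparisons, among which the donor block is not, since the naive libraries carry no donor tag, with log2 fold changes of 3.05 to 3.17 (Ldha), 0.80 to 1.02 (Slc16a1), 5.33 to 5.48 (Slc16a3) and 2.56 to 2.699 (Bsg) in media against naive when each library was left out. Slc16a3, Bsg and Emb in lactate against media and Ldhb and Emb in media against naive kept their direction and were called under none of the alternatives. Other results changed, and the cause was not tested. In lactate against media, Ldha was at 0.43 with upper quartile scaling and at 0.38 with donor as a replicate block, neither called, and at 0.40 to 0.50 with each library left out. Slc16a1 was at 0.50 with the compared groups alone and at 0.49 at an adjusted p of at most 0.05, both called, and at 0.40 to 0.54 with a library left out. The number of genes higher was therefore 0 with upper quartile scaling and with the donor block, 2 with the compared groups alone and at 0.05, and 0 to 2 with a library left out. Ldhb, never called, was at -0.30 with the donor block and at -0.25 to 0.0068 with a library left out in lactate against media, at 0.031 to 0.34 with a library left out in media against naive, and in lactate against naive at -0.0014 with DESeq2, -0.00073 with DESeq2 size factors and -0.064 to 0.21 with a library left out. Emb in lactate against naive was at -0.89 to -0.42 with a library left out, and the number of genes lower was 0 to 1. The title number as a replicate block gave 0.45 for Ldha and 0.49 for Slc16a1 in lactate against media and changed no call of the 6 genes, though the calls of Dld, Pdha1, Aldoa and Arnt were lost with it; the donor block changed no call of them other than that of Ldha. Without division by gene length Slc16a3 was 10.8% of its pair in naive cells, 72.6% in media and 63.6% in lactate. Every scaling shifted the median of all genes by less than 0.1 on the log2 scale.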

Other observations

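Of the 3 annotated copies of Ldha in the table, Gm11814 had 13 to 23 counts per library in naive cells, 54 to 216 in media and 109 to 180 in lactate, with media and lactate overlapping. Gm9247 had 1 to 9 counts per library in naive cells, 30 to 35 in media and 41 to 66 in lactate, and Gm5452 had 2 to 10, 30 to 41 and 38 to 57. In these raw counts Gm9247 did not overlap between groups and Gm5452 overlapped between media and lactate. The counts are not scaled for the unequal library totals, so no difference between media and lactate is read from them. Whether these reads came from the copies or from Ldha was not tested.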
